A study of Mus musculus with 7 samples.

Results

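The carboxylesterase genes *Ces1b*, *Ces1c*, *Ces1d*, *Ces1e*, *Ces1f*, *Ces1g*, *Ces2a*, *Ces2e*, *Ces3a* and *Ces3b* were followed in the liver of mice that lack the Notch effector *Rbpj*. These 10 genes were taken by the name of their array probes, out of 18755 genes tested, and 11 probes measured them. They were chosen with their difference between the genotypes already known, so that difference is given here as a description without a test. The study compared 4 *Rbpj*+/+ with 3 *Rbpj*-/- mice of the C57BL/6J strain at the age of 4 weeks, with whole liver RNA of 1 animal on each array. All 7 animals carried the floxed *Rbpj* allele on both chromosomes and were untreated. The *Rbpj*+/+ mice lacked the *AlfpCre* transgene and had no cholestasis, while the *Rbpj*-/- mice carried it and had cholestatic livers. *AlfpCre* is active from before birth in the precursors of hepatocytes and bile duct cells, so that other liver cells kept the gene. The study also reports liver necrosis with immune cells around it and a small body size in *Rbpj*-/- mice of this age. Effects of the lost gene, of the cholestasis, of these other changes and of the transgene itself cannot be told apart here.

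Carboxylesterases hydrolyse esters, amides and thioesters. Hepatocytes hold large amounts of them in the lumen of the endoplasmic reticulum, where they activate or clear drugs and also act on stored triacylglycerol and on cholesteryl and retinyl esters. In rodents the family has grown by tandem duplication, and the copies sit side by side on chromosome 8 in a cluster with the *Ces1* genes and *Ces5a* and a cluster that runs from the *Ces2* genes through *Ces3a* and *Ces3b* to *Ces4a*.

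Because the genes are close copies, the sequences that measured them are given first. The probes of *Ces1b*, *Ces1c* and *Ces1d* are directed against the same place in these related transcripts, and that of *Ces1h* lies there too. Each probe has 60 bases, and capitals mark the bases that differ from the *Ces1c* probe where they overlap without a gap.
Ces1b: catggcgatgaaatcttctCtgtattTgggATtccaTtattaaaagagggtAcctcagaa
Ces1c: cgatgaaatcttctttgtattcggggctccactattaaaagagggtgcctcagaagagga
Ces1d: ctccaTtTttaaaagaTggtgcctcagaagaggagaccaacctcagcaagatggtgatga
Ces1h: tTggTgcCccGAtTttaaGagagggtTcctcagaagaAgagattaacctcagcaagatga
Against *Ces1c*, *Ces1b* differed at 6 of 55 overlapping bases, *Ces1d* at 3 of 34 and *Ces1h* at 9 of 40. The *Ces1h* probe was well above background on 1 of 4 *Rbpj*+/+ and 1 of 3 *Rbpj*-/- arrays, and the other 3 probes on all 7. Whether each probe also takes up RNA of its neighbours was not tested. The dim *Ces1h* probe does not show this for the other 3, which are more alike among themselves.

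The probe of *Ces2a* and those of 3 relatives cover the end of the coding sequence. They are shown as far as the stop codon, and capitals mark the last 12 coding bases, the place where carboxylesterases of the endoplasmic reticulum carry the signal that returns them to it.
Ces2a: ttctcaggacaagCATGCAGAGCTGtag
Ces2c: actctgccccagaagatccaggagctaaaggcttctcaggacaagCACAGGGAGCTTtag
Ces2g: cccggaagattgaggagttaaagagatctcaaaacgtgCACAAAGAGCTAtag
Ces2h: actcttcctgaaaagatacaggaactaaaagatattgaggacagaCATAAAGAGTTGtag
Over the 28 bases shown, the *Ces2a* probe matched that of *Ces2c* at 23. By its design, the *Ces2c* probe also lists transcripts of *Ces2b* and of the pseudogene *Ces2d-ps*. The *Ces3b* probe, for the gene with the widest difference between the genotypes, lists no other gene.
Ces3b: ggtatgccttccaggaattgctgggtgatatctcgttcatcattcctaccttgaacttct
The *Ces3a* probe lists transcripts of both *Ces3a* and *Ces3b*, so that its signal may hold RNA of either. In all, 253 pairs of the 23 carboxylesterase probes were compared, and 12 shared a similar stretch, none of them a pair of *Ces3* probes.

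Values are log2 intensities from which the 75th percentile of the array was subtracted, so that a value of 0 is a probe as bright as that percentile and a difference of 1 is a doubling. They allow animals to be compared for 1 probe, not probes with each other. The share of probes well above background was 41.1% to 64.9% of all probes on an array, and precision is limited by how few arrays there are. The arrays of Rbpj +/+_1156 and Rbpj -/-_N3 stood apart with brighter dim probes, their median intensity being 19.7 and 31.2 against 5.40 to 8.80 on the others. The Y-linked genes *Ddx3y* and *Eif2s3y* were well above background on 7 of 7 arrays, and 1 of the *Xist* probes was so on 1 array. All arrays lay on 1 slide, with the *Rbpj*+/+ arrays in one row and the *Rbpj*-/- arrays in the other, so that a row effect cannot be told apart from the genotype. *Rbpj*, the deleted gene, measured 0.97, 0.29, 0.33 and 0.81 in the *Rbpj*+/+ animals and −0.35, −0.78 and −0.48 in the *Rbpj*-/- animals. *Rbpj* thus fell by 1.13 on the log2 scale (SE 0.24, adjusted p = 0.0115 from limma), although it is not given which part of the gene is deleted and whether the probe lies in it.

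All 11 probes of the carboxylesterase genes were well above background on all 7 arrays. In 9 of the 10 genes the mean was lower in *Rbpj*-/- liver, and in 7 the highest *Rbpj*-/- animal was below the lowest *Rbpj*+/+ animal, which held for 21.1% of all genes tested. Since the genes were chosen on this difference, nothing is read from that count. Their differences ran from −7.90 to 0.35 with a median of −1.42, beside a median of −0.13 over all genes. The 3 widest belonged to *Ces3b*, *Ces3a* and *Ces1f*, at −5 or less, as were 32 genes or 0.171% of all tested. In whole liver, fewer hepatocytes and less RNA per hepatocyte cannot be told apart.

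**Figure D1:**
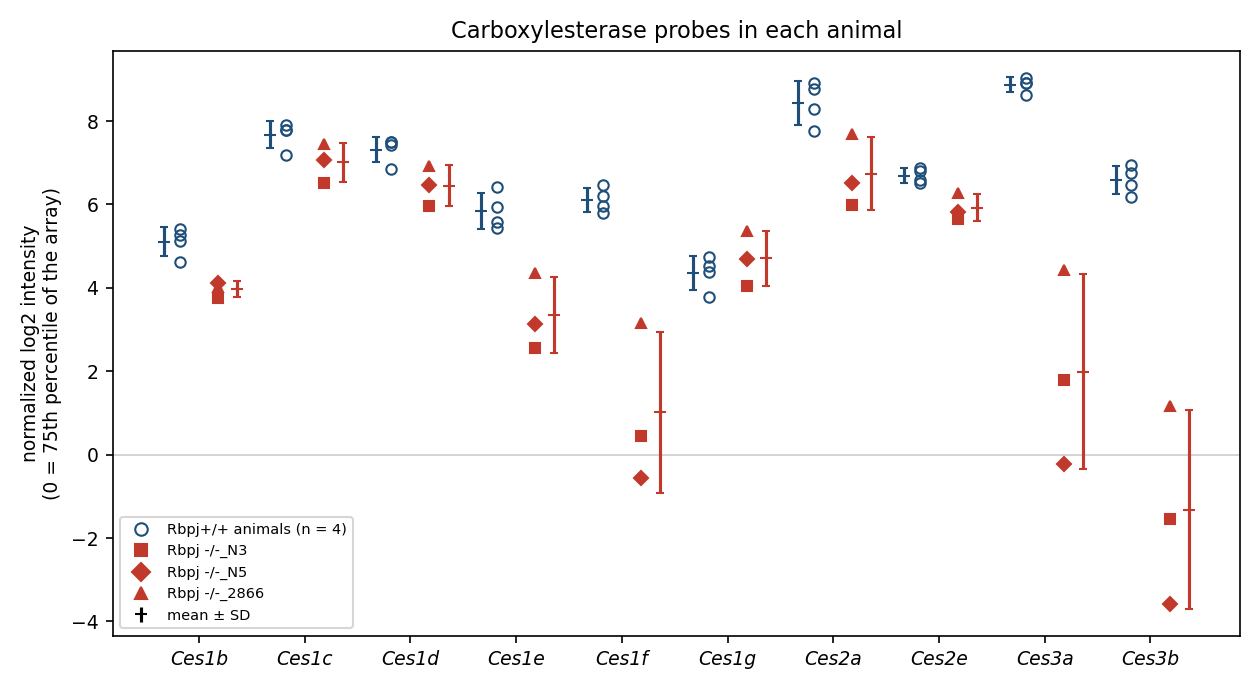
Normalized log2 intensity (y axis, 0 is the 75th percentile of the array) of the brightest probe of each carboxylesterase gene (x axis) in the 4 Rbpj+/+ animals (open circles) and the 3 Rbpj-/- animals (filled symbols, 1 shape per animal), with the mean ± SD beside them. The genotypes are far apart for Ces1f, Ces3a and Ces3b and overlap for Ces1c, Ces1d and Ces1g.

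The *Ces3* genes stood farthest from the *Rbpj*+/+ level. *Ces3a* and *Ces3b* encode liver carboxylesterases related to triacylglycerol hydrolase. The *Ces3b* probe (chromosome 8, 107615484 to 107615543, plus strand, in the build mm9 that the array design uses) read 6.75, 6.18, 6.47 and 6.95 in Rbpj +/+_1155 and Rbpj +/+_1156, then Rbpj +/+_1024 and lastly Rbpj +/+_991, the order used throughout. In Rbpj -/-_N3, Rbpj -/-_N5 and Rbpj -/-_2866 it read −1.55, −3.58 and 1.18. The lowest *Rbpj*+/+ animal thus lay far above the highest *Rbpj*-/- animal. The means were 6.59 ± 0.34 (SD, n = 4) and −1.32 ± 2.39 (SD, n = 3), a difference of −7.90 (SE 0.89) or 240-fold. With normexp background correction, whose offset compresses dim signals, the difference was −6.24. *Ces3b* ranked 7 among the falls of all genes tested.

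The same pattern was seen for *Ces3a* (chromosome 8, 107582236 to 107582295, plus strand). It read 8.92, 8.62, 9.03 and 8.92 in *Rbpj*+/+ and 1.78, −0.23 and 4.42 in *Rbpj*-/- animals. The 4 *Rbpj*+/+ animals were within 0.41 of each other, while the *Rbpj*-/- animals spanned 4.65, and the groups did not overlap. The difference was −6.88 (SE 0.86) or 118-fold, with means of 8.87 ± 0.17 (SD, n = 4) and 1.99 ± 2.33 (SD, n = 3). In both *Ces3* genes Rbpj -/-_N5 was lowest, Rbpj -/-_N3 next and Rbpj -/-_2866 highest.

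*Ces1f*, also called triacylglycerol hydrolase 2, was the third of these genes. Its probe (chromosome 8, 95780225 to 95780284, minus strand) gave 6.21, 5.78, 5.97 and 6.46 in *Rbpj*+/+ and 0.44, −0.56 and 3.16 in *Rbpj*-/- animals. Again Rbpj -/-_N5 was lowest and Rbpj -/-_2866 highest, without overlap between the groups. The difference was −5.09 (SE 0.73) or 34.1-fold, and the SD was 0.29 (n = 4) in *Rbpj*+/+ against 1.93 (n = 3) in *Rbpj*-/- liver.

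*Ces1e* encodes egasyn, which binds β-glucuronidase in the endoplasmic reticulum and keeps it there. Its probe (chromosome 8, 95725207 to 95725266, minus strand) read 5.59, 5.43, 5.94 and 6.41 in *Rbpj*+/+ and 2.56, 3.14 and 4.35 in *Rbpj*-/- animals. The groups did not overlap, and the difference was −2.49 (SE 0.42) or 5.63-fold. The gene for the bound enzyme went the other way, as *Gusb* rose by 1.40 (SE 0.26, adjusted p = 0.00776 from limma).

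*Ces1d*, the triacylglycerol hydrolase of mouse liver, takes part in mobilising stored triacylglycerol for very low density lipoprotein (VLDL). It read 7.43, 6.86, 7.49 and 7.49 in *Rbpj*+/+ and 5.96, 6.47 and 6.92 in *Rbpj*-/- animals. The lowest *Rbpj*+/+ animal, Rbpj +/+_1156, lay just below the highest *Rbpj*-/- animal, Rbpj -/-_2866, so that the groups overlapped. The difference was −0.87 (SE 0.28) or 1.82-fold. *Ces1d* was therefore apart from *Ces1f* although both names refer to triacylglycerol hydrolysis.

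*Ces1c* encodes the carboxylesterase that the mouse liver secretes into plasma. Its values were 7.79, 7.19, 7.90 and 7.79 in *Rbpj*+/+ and 6.52, 7.07 and 7.45 in *Rbpj*-/- animals, which overlapped. The difference was −0.65 (SE 0.27) or 1.57-fold. *Ces1b*, its neighbour, read 5.42, 4.62, 5.12 and 5.27 in *Rbpj*+/+ and 3.76, 4.12 and 4.03 in *Rbpj*-/- animals. Here the groups did not overlap and the *Rbpj*-/- animals were within 0.37 of each other, the narrowest of the 10 genes. The difference of *Ces1b* was −1.14 (SE 0.23) or 2.20-fold.

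*Ces1g*, which acts on lipids in hepatocytes and intestine and lies next to *Ces1f*, was not lower. Its probe (chromosome 8, 95826722 to 95826781, minus strand) read 4.39, 3.78, 4.53 and 4.73 in *Rbpj*+/+ and 4.05, 4.70 and 5.37 in *Rbpj*-/- animals. The groups overlapped and the difference was 0.35 (SE 0.34), within the spread of both. Without Rbpj -/-_2866 it was 0.02.

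The *Ces2* genes encode carboxylesterases of liver and intestine that favour esters with a large alcohol group, as in many prodrugs. The *Ces2a* probe (chromosome 8, 107265289 to 107265348, plus strand) read 7.75, 8.28, 8.92 and 8.77 in *Rbpj*+/+ and 5.99, 6.52 and 7.70 in *Rbpj*-/- animals. Rbpj -/-_2866 lay barely below Rbpj +/+_1155, and the groups did not overlap. The difference was −1.70 (SE 0.43) or 3.24-fold. The brighter of 2 *Ces2e* probes (chromosome 8, 107458508 to 107458567, plus strand) read 6.87, 6.58, 6.52 and 6.81 in *Rbpj*+/+ and 5.66, 5.83 and 6.28 in *Rbpj*-/- animals. All *Rbpj*-/- animals were below, and the difference was −0.77 (SE 0.21) or 1.71-fold. The dimmer *Ces2e* probe, which lies before it (107457772 to 107457831), disagreed in part, with values of −1.13, −2.16, −1.68 and −1.33 against −2.22, −1.66 and −1.50. On that probe the groups overlapped and the difference was −0.22 (SE 0.29).

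The *Rbpj*-/- animals differed among themselves in a regular way. Rbpj -/-_2866 was the highest of the 3 in 9 of the 10 genes and Rbpj -/-_N5 in 1, *Ces1b*. Among all genes with a difference of −1 or less, Rbpj -/-_2866 was highest in 58.8%, and among all genes whatever their difference in 37.0%. Of the 10 carboxylesterase genes, 6 had a difference of −1 or less. Rbpj -/-_N3 was lowest in 7 genes and Rbpj -/-_N5 in *Ces1f*, *Ces3a* and *Ces3b*, beside 45.3% and 41.0% of all genes with a difference of −1 or less. Against the *Rbpj*+/+ mean, *Ces3b* was 282-fold lower in Rbpj -/-_N3, 1149-fold lower in Rbpj -/-_N5 and 42.5-fold lower in Rbpj -/-_2866. For *Ces1f* these values were 51.0-fold, 102-fold and 7.69-fold, and for *Ces1e* 9.76-fold, 6.52-fold and 2.81-fold. The *Ces3b* signal of Rbpj -/-_N5 was dim, at −3.58, so that its fold depends on how background is taken off. Rbpj -/-_N3 is also the animal with the brightest dim probes. After quantile normalization, which gives all arrays the same distribution, Rbpj -/-_2866 was highest in 9 genes and Rbpj -/-_N3 lowest in 6. The part that the array of Rbpj -/-_N3 has in its low values was not tested. Without Rbpj -/-_N3 the difference of *Ces3b* was −7.79, without Rbpj -/-_N5 −6.77 and without Rbpj -/-_2866 −9.15.

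**Figure D2:**
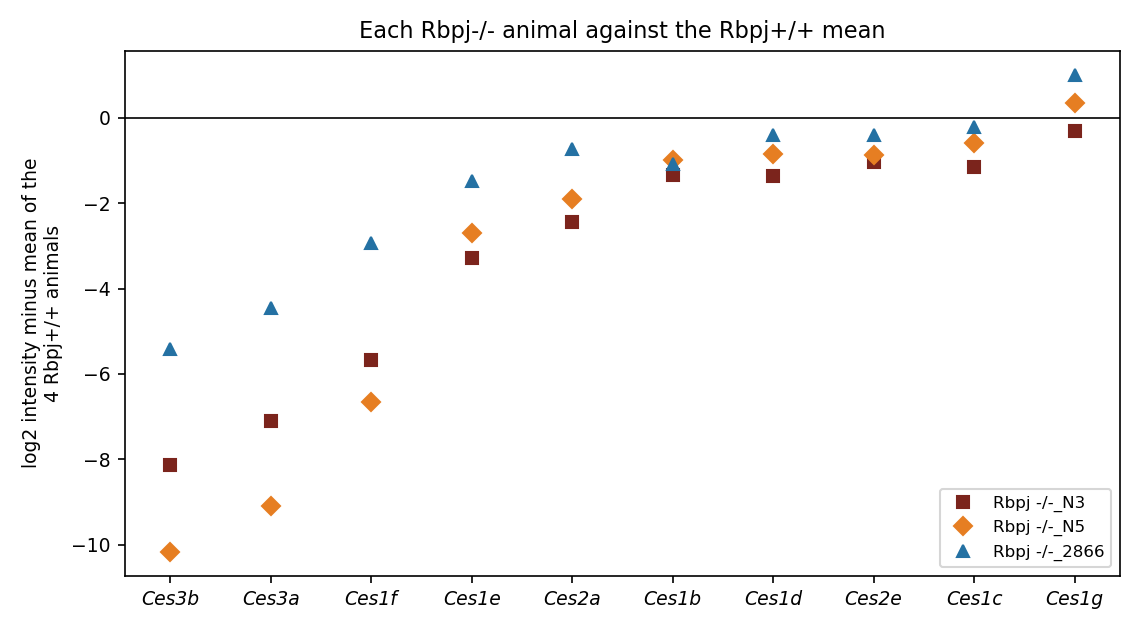
Normalized log2 intensity of each Rbpj-/- animal minus the mean of the 4 Rbpj+/+ animals (y axis) for the carboxylesterase genes, ordered from the lowest difference to the highest (x axis), with 1 symbol per animal. Rbpj -/-_2866 is the highest in 9 genes, and Rbpj -/-_N5 is lowest in Ces3b, Ces3a and Ces1f.

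Read along the chromosome, the differences were uneven within both clusters. From *Ces1b* to *Ces1f* they ran −1.14, −0.65, −0.87, −2.49 and −5.09, and the next gene, *Ces1g*, was at 0.35. In the other cluster *Ces2a* and *Ces2e* were at −1.70 and −0.77, while *Ces3a* and *Ces3b* lie toward its far end. *Ces4a*, the last gene of that cluster and no member of the set, fell. It read 0.78, 0.21, −0.04 and −0.71 in *Rbpj*+/+ and was well above background on 0 of 3 *Rbpj*-/- arrays. On this scale its level was at least 12.9-fold lower there, where the bound sets each *Rbpj*-/- array at no less than the dimmest signal well above background. The adjusted p of 5.97e-05 from limma belongs to the fitted difference of −5.67, made from *Rbpj*-/- signals that were not well above background. The gene entered the test through its detection in *Rbpj*+/+ liver, and it fell by 1.78 with normexp background correction.

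Differences of the other carboxylesterase genes were smaller than that of *Ces4a*. *Ces2c* fell by 1.28 on its brightest probe (SE 0.32, adjusted p = 0.0217 from limma). Its other probes gave −0.18 and −0.08 (adjusted p = 0.724 and 0.892), so the call rests on the probe that also lists *Ces2b* and *Ces2d-ps*. *Ces2g* fell by 0.84 (SE 0.25, adjusted p = 0.0435 from limma), and did not pass without Rbpj +/+_1024, Rbpj -/-_N3 or Rbpj -/-_N5 (adjusted p = 0.111, 0.136 and 0.154). *Ces1a* at −0.64 and *Ces2b* at −0.16 did not pass (adjusted p = 0.277 and 0.772). *Ces1h*, *Ces2f*, *Ces2h* and *Ces5a* were above background on too few arrays to be tested. Of 5 further carboxylesterase genes tested, 3 were thus lower and 0 higher by limma, and 3 had an unadjusted p under 0.05. Over all genes tested, 19.5% were lower and 14.6% higher at the same threshold, an adjusted p of 0.1. This split depended on the scaling, as 57.2% of the called genes were lower here, against 47.7% with quantile normalization, 47.5% with the authors' own normalized values (the series matrix) and 48.8% with the percentile taken over probes detected on all arrays.

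**Figure D3:**
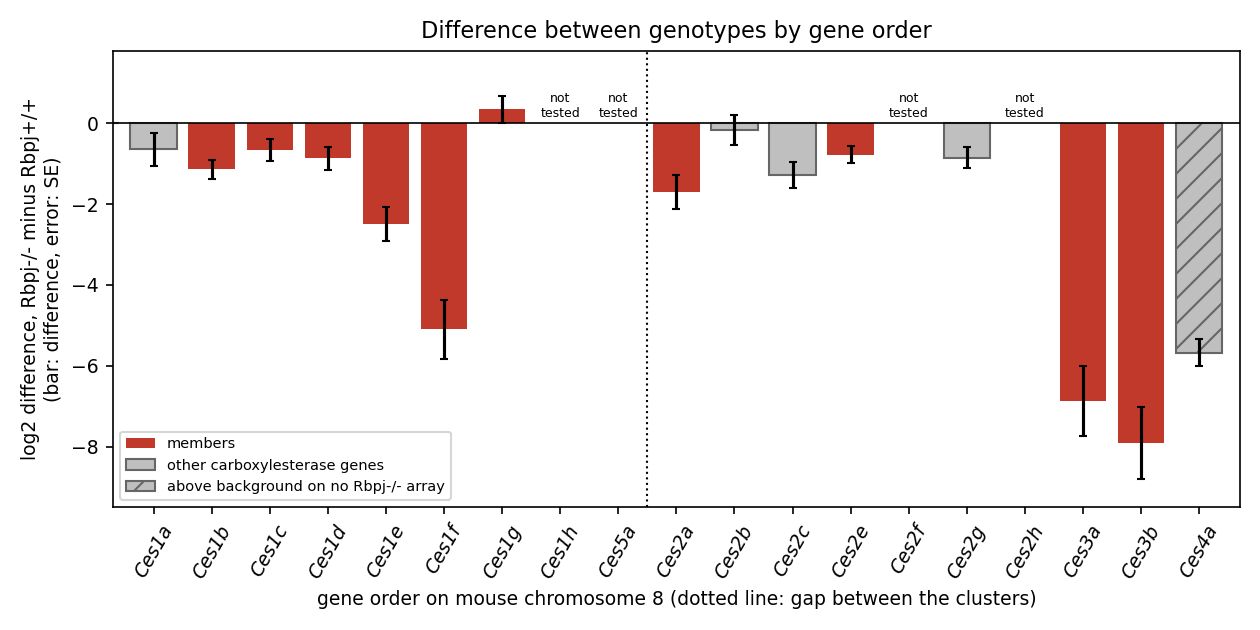
Log2 difference between the genotypes (y axis, bars, with the SE as error) for the carboxylesterase genes in their order on mouse chromosome 8 (x axis), with the 10 genes of the set in red, other carboxylesterase genes in grey and a dotted line between the clusters. Ces1f at −5.09 stands beside Ces1g at 0.35, and the last 3 genes of the right-hand cluster are the lowest there. Hatching marks Ces4a, whose bar is a fitted value because its probe was above background on no Rbpj-/- array.

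Genes outside the clusters were examined to show the level of their neighbourhood, a comparison chosen after the values were seen. In the RefSeq annotation of GRCm38.p6, no other protein-coding gene lies inside either cluster. Among all tested genes, 14.6% were higher and 19.5% lower (adjusted p below 0.1 from limma). Of the 5 nearest tested genes on each side of each cluster, 20 in all, 5 were higher and 3 lower. Their differences ran from −0.78 to 1.33 with a median of 0.10, and 7 of the 10 carboxylesterase genes lay below all of them, *Ces1c*, *Ces1g* and *Ces2e* being the exceptions. As the carboxylesterase genes were chosen on this difference, nothing is read from their place below the neighbours.

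Upstream sequence was available for 7 of the 10 genes from RefSeq (GRCm38.p6), covering 250 bases before and 50 after each start. It is shown for *Ces3b* because this gene had the widest difference, from 200 bases before its start to the last base before it (chr8:105083555-105083754, plus strand). Capitals mark a TATA box, TATAAA.
Ces3b: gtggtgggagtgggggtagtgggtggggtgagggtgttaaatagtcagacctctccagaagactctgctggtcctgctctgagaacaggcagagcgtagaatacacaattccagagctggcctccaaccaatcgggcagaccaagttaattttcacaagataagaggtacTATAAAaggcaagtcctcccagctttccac
On either strand, TATAAA was present in 13.6% of the 32851 promoters of the same length. Among the 7 genes, it was found in *Ces3b* and, on the opposite strand only, in *Ces1g*. The HNF4 core CAAAGT, present in 14.4% of promoters, was found in *Ces2a* and *Ces2e*, on the opposite strand. A match describes the letters only.

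*Ces1b* and *Ces1c*, neighbours with differences of −1.14 and −0.65, share a run of 58 identical bases upstream. The stretch is shown with the bases that differ in capitals, for *Ces1b* from chr8:93080029-93080113 and for *Ces1c* from chr8:93131383-93131467, both on the minus strand.
Ces1b: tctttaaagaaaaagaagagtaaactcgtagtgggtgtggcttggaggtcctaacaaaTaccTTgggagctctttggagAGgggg
Ces1c: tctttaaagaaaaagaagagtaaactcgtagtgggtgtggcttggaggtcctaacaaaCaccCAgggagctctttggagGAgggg
Of these 85 bases, 5 differed. *Ces2a* and *Ces2e* also share a run, of 17 bases, in capitals here, which 2 of the 32851 promoters held. Those 2 are *Ces2a* and *Ces2e* themselves, since the run was taken as their longest shared stretch. Nothing is read from that count. The run lies in chr8:104733783-104733832 for *Ces2a* and chr8:104926062-104926111 for *Ces2e*, both on the plus strand.
Ces2a: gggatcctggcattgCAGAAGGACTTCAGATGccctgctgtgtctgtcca
Ces2e: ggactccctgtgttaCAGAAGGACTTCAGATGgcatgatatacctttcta

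Factors that are known to act on carboxylesterase genes were counted next. Of 19 tested regulators, 8 were lower and 1 higher by limma (19.5% and 14.6% of all genes), with a median of −0.53. *Nr1h4*, the bile acid receptor FXR, fell by 1.52 (SE 0.23, adjusted p = 0.00321). *Ppara*, the fatty acid receptor of hepatocytes, fell by 1.40 (SE 0.28, adjusted p = 0.00962), and *Cebpa*, a factor of mature hepatocytes, by 1.01 (SE 0.39, adjusted p = 0.0878). The call of *Cebpa* was lost with quantile normalization (adjusted p = 0.137) and on leaving out any of 5 animals, with −0.70 (adjusted p = 0.287) without Rbpj -/-_N5. The count depended on single animals, as 2 regulators were called without Rbpj -/-_N5. *Ahr*, the dioxin receptor, rose by 0.80 (SE 0.25, adjusted p = 0.0508), and did not pass without Rbpj +/+_1024, Rbpj +/+_991 or Rbpj -/-_N5 (adjusted p = 0.129, 0.108 and 0.187). *Hnf4a*, whose core motif was searched above, had a difference of −0.32 and did not pass (adjusted p = 0.216). The xenobiotic receptors *Nr1i2* and *Nr1i3*, which induce carboxylesterases in response to drugs, did not pass either, at 0.01 and −0.47.

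Other enzymes with related substrates moved in both directions. Of 34 tested ester and lipid hydrolases, 6 were lower and 3 higher by limma (19.5% and 14.6% of all genes), with a median of −0.21. With 26.5% of them called, the count is not read as a result about these enzymes. *Mgll*, which splits monoacylglycerol, fell by 1.97 (SE 0.28, adjusted p = 0.00252). *Pon1*, an esterase that the liver secretes on high density lipoprotein, fell by 1.73 (SE 0.38, adjusted p = 0.0135), and *Nceh1*, a cholesteryl ester hydrolase, by 0.91 (adjusted p = 0.0541). *Nceh1* did not pass without Rbpj +/+_1155, Rbpj +/+_991, Rbpj -/-_N5 or Rbpj -/-_2866 (adjusted p = 0.104 to 0.158). *Lpl*, lipoprotein lipase, rose by 2.16 (SE 0.29, adjusted p = 0.00208), *Pon2* by 1.31 and *Abhd12* by 0.90. A dimmer *Pon2* probe disagreed, at −0.72. *Pnpla2*, the adipose triacylglycerol lipase, was at 0.02 (adjusted p = 0.955). *Aadac*, an esterase of the endoplasmic reticulum with substrates in common with carboxylesterases, fell by 0.87 (adjusted p = 0.0771). None of these 34 genes was as low as *Ces1e*, *Ces1f*, *Ces3a* or *Ces3b*.

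Genes of VLDL assembly and lipid droplets, the setting in which *Ces1d* acts, were also mixed. Of 18 tested, 6 were lower and 4 higher by limma (19.5% and 14.6% of all genes), with a median of −0.52. The number called was 4 without Rbpj -/-_N5, 5 without Rbpj +/+_1024 or Rbpj +/+_991 and 6 with quantile normalization or the series matrix. *Apob*, the core protein of VLDL, fell by 0.97 (SE 0.18, adjusted p = 0.00809) and *Apoc3* by 0.92 (SE 0.20, adjusted p = 0.0129). Dimmer probes of these genes disagreed, at 0.34 for *Apob* and −0.14 for *Apoc3*. *G0s2*, an inhibitor of *Pnpla2*, fell by 1.52 (adjusted p = 0.0796), a call lost with quantile normalization (adjusted p = 0.118) and on leaving out any of 5 animals, with −0.94 (adjusted p = 0.262) without Rbpj -/-_N5. The droplet genes *Cidec*, *Hsd17b13* and *Plin4* rose by 1.31, 1.22 and 0.86, although a dimmer *Hsd17b13* probe was at −0.04. The call of *Plin4* (adjusted p = 0.0837) was lost with quantile normalization (adjusted p = 0.107) and on leaving out any of 5 animals, with 0.48 (adjusted p = 0.268) without Rbpj -/-_N5. *Mttp*, which loads lipid on *Apob*, was at −0.47 and did not pass (adjusted p = 0.134). Of 4 genes for return to the endoplasmic reticulum and for egasyn's partner, 2 were higher, *Gusb* and *Kdelr3*, and 0 lower. Among all genes 14.6% were higher and 19.5% lower. *Kdelr3*, a receptor of the retrieval signal, rose by 1.93 (SE 0.47, adjusted p = 0.0201), but only 1 of the 4 *Rbpj*+/+ arrays measured it well above background. With normexp background correction its difference was 0.15 (adjusted p = 0.546).

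**Figure D4:**
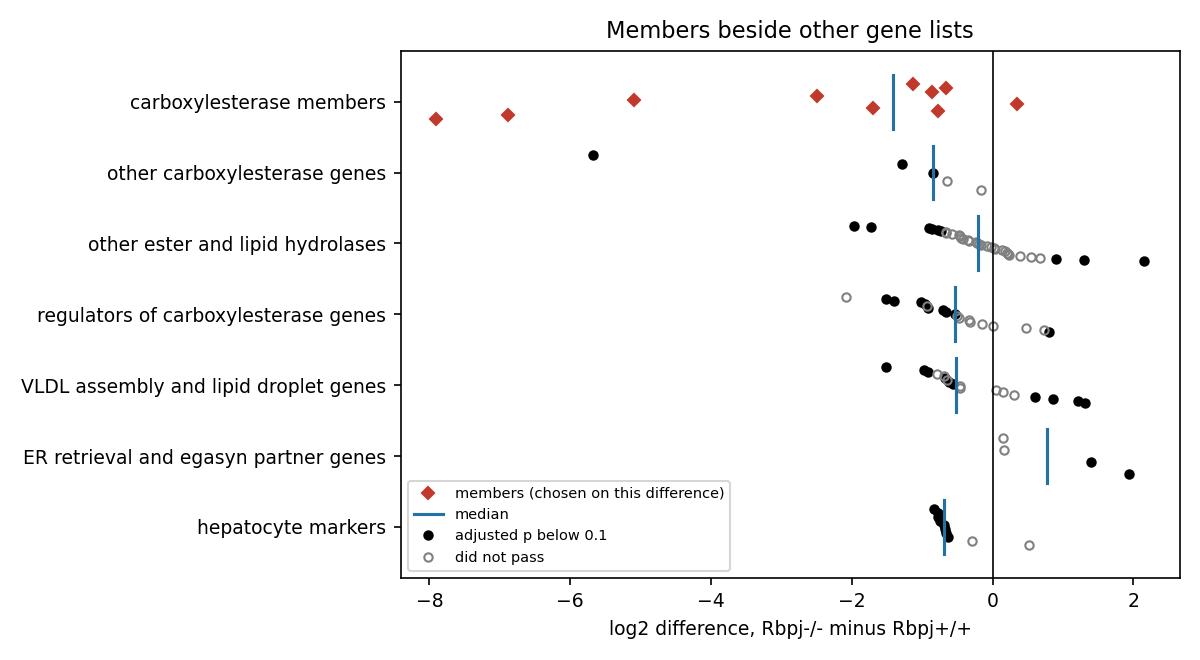
Log2 difference between the genotypes (x axis) for each tested gene of the lists on the y axis, with the carboxylesterase genes of the set as red diamonds, genes with an adjusted p below 0.1 as filled circles, others as open circles and the median of each list as a vertical line. The carboxylesterase genes reach −7.90, while every tested hepatocyte marker lies between −0.83 and 0.52.

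Cell type markers moved with the genotype as well. Of 10 hepatocyte markers, 8 were lower and 0 higher, beside 19.5% and 14.6% of all genes. The median of these markers was −0.68, with a range from −0.83 to 0.52. *Alb* fell by 0.78 (SE 0.18, adjusted p = 0.0167 from limma). Their mean level lay between 9.0 and 9.49 in *Rbpj*+/+ and between 8.54 and 8.71 in *Rbpj*-/- animals. These levels depend on the scaling. The 75th percentile taken off was 5.84 to 6.68 on the *Rbpj*+/+ and 6.88 to 7.16 on the *Rbpj*-/- arrays. The part of that shift in the lower marker values was not tested, so the count of 8 is not read as a loss of hepatocytes. The differences of *Ces1c*, *Ces1g* and *Ces2e* lay within the range of these markers, that of *Ces1d* just beyond it, and those of *Ces1b*, *Ces1e*, *Ces1f*, *Ces2a*, *Ces3a* and *Ces3b* further away. Of the markers of other cells, 5 of 6 for macrophages and leukocytes, 5 of 6 for stellate cells and fibroblasts and 2 of 4 for bile duct cells were higher by limma. Only 4 of the 6 listed bile duct markers were bright enough to be tested. The bile duct keratins *Krt19* and *Krt7* did not pass, at 0.25 and −0.45 (adjusted p = 0.532 and 0.656 from limma). Proliferation markers, which belong to no single cell type, were higher in 4 of 4. The share of all genes that were higher was 14.6%. *Top2a*, a proliferation marker, was well above background on only 1 of the 4 *Rbpj*+/+ arrays. Of 4 endothelial markers 1 was lower and 0 were higher. None of the 4 kidney markers was bright enough to be tested, nor were the intestinal markers *Cdx2* and *Alpi*. Of the 2 genes tested from the intestinal list, *Fabp2*, a fatty acid binding protein, fell by 2.20 (adjusted p = 0.00429 from limma). Its mean in *Rbpj*+/+ liver was 5.87, and it was well above background on all 4 *Rbpj*+/+ and all 3 *Rbpj*-/- arrays. It is thus bright in liver and is not read as a sign of intestine here. *Vil1*, villin, rose by 1.26 (adjusted p = 0.00334 from limma). The *Vil1* probe was well above background on only 2 of the 4 *Rbpj*+/+ arrays. The part of these shifts in the values of the carboxylesterase genes was not tested.

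The genes whose course over the 7 animals came nearest to the mean course of the 10 carboxylesterase genes were sought by the root mean square difference of centred log2 values. Among the nearest 5 were *1810008I18Rik* (0.226), *Scnn1a* (0.228), *Rs5-8s1* (0.229) and *Ppp1r3c* (0.283), with differences between the genotypes from −2.96 to −2.42. Among the carboxylesterase genes, *Ces1e* lay nearest to this mean (0.280) and *Ces3b* farthest from it (2.70), so that no single course describes the set.

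The differences were recomputed with other processing and with 1 animal left out. With other processing, *Ces3b* lay between −8.15 and −6.24, *Ces3a* between −7.06 and −6.42 and *Ces1f* between −5.21 and −4.47. *Ces1e* ranged from −2.55 to −2.36, *Ces2a* from −1.71 to −1.35 and *Ces1b* from −1.20 to −1.01. For the smaller differences the ranges were −0.68 to −0.32 for *Ces1c*, −0.90 to −0.58 for *Ces1d* and −0.77 to −0.48 for *Ces2e*. Single animals moved the widest differences further. Without Rbpj -/-_2866 *Ces3b* was at −9.15, *Ces3a* at −8.10, *Ces1f* at −6.17 and *Ces1e* at −3.0, and without Rbpj -/-_N5 *Ces3a* was at −5.77 and *Ces1f* at −4.31. Without Rbpj -/-_2866 *Ces1c*, *Ces1d* and *Ces2e* also lay lower, at −0.87, −1.10 and −0.95. All 10 genes kept their sign in each of these recomputations.

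**Figure D5:**
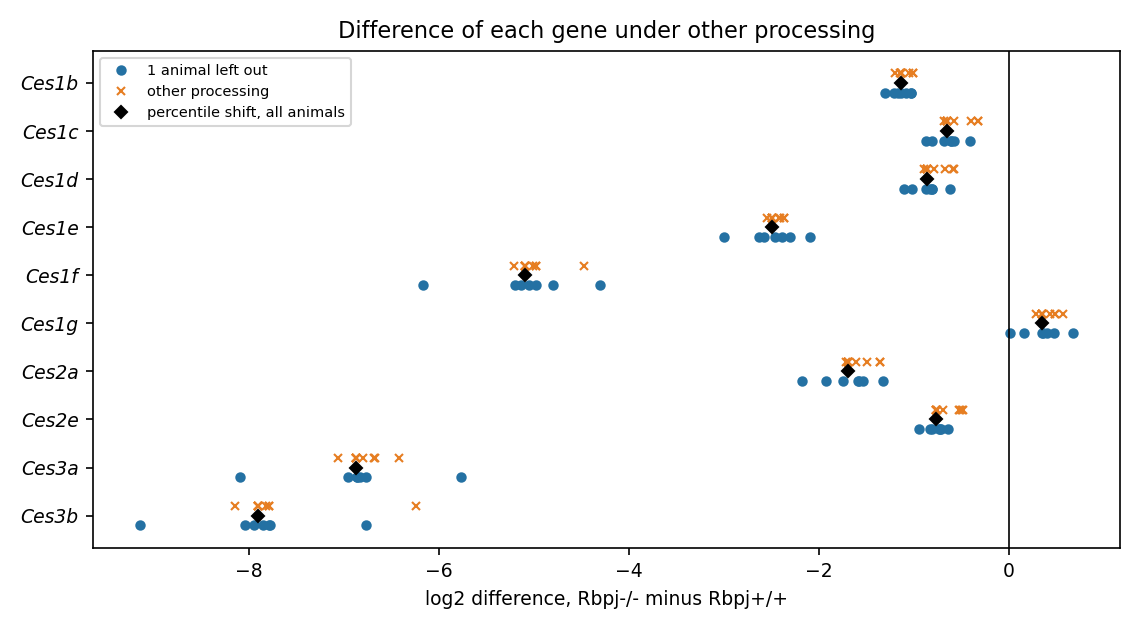
Log2 difference between the genotypes (x axis) of each carboxylesterase gene (y axis) as reported (diamonds), with other processing (crosses) and with 1 animal left out (circles). Leaving out 1 animal moves Ces3b between −9.15 and −6.77, and Ces1g comes as near to 0 as 0.02.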

How the data were processed

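Total RNA of whole liver was labelled with Cy3 and hybridised to Agilent mouse arrays, 1 array for each of 7 animals. The intensity values deposited by the authors are the background-subtracted spot signals of Feature Extraction 10.7.3.1 (per the labels), not normalized between arrays. The log2 values of the authors' series matrix were used as an alternative. The methods name a percentile shift and a median baseline for the arrays. The matrix values had medians of −0.00 to 0 and correlated across probes at r = 1.00 with quantile-normalized intensities centred on each probe's median, and at 0.776 to 0.876 with percentile-shifted ones. The quality marks deposited by the authors per spot were used as filters.

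Neither control probes nor spots with an outlier mark were used, which removed 146 probe values, and 0 spots were saturated. After log2 transformation, spots of 1 probe were averaged and the array's 75th percentile was taken off. The test was run on 24548 of 55681 probes, those detected (positive, significant, well above background) throughout at least 1 genotype. The brightest tested probe stood for its gene. R 4.3.3 and limma 3.58.1 were used to compare the genotypes, p was adjusted by Benjamini-Hochberg over all tested probes, and 0.1, the false discovery rate of the study, was the threshold. The p-values set the difference between the genotypes against the spread between animals, moderated over all tested probes. They do not cover the slide row, which coincides with the genotype. Current names came from the accession (28331 probes), the symbol (2209) or a synonym (174). Probe coordinates are those of the design (mm9). Python 3.11.15 with pandas 2.3.3 and matplotlib 3.10.9 made tables and figures. The fit was tested on simulated data.

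The carboxylesterase genes and all gene lists were chosen with earlier results of these data known. Genes named are the 10 carboxylesterase genes, other carboxylesterase genes with a probe, up to 3 rises and 3 falls of each list with genes needed for their role, the 5 nearest courses, *Rbpj* and up to 2 markers a list. The sex-linked genes and the genes beside the clusters were added after the values were seen. Results for 2 genes are not reported here. Alternatives were normexp with an offset of 50, quantile normalization, testing of dim probes too, detection on all 7 arrays as the filter or as the basis of the percentile, marked spots kept, the series matrix, the mean of a gene's probes, a variance trend, array weights (for the carboxylesterase genes chosen after seeing the data), a threshold of 0.05 and each animal left out. The labels give each animal a number of its own, and none is shared between the genotypes.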

Additional observations from a re-analysis of the deposited data

Results flagged for a closer look

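In 130 probes of the genes named or listed here, an animal was looked for that stood apart from the other 3 of the *Rbpj*+/+ group, and 8 probes or 6.15% had one, where chance gives about 1 in 20. The measure is the gap of the extreme animal to the nearest one divided by the range of the group, with 0.829 as the critical value. In 6 of them the animal was Rbpj +/+_1156, the *Rbpj*+/+ array with the brightest dim probes, and each time it was the lowest. *Ces1c* read 7.19 in it against 7.79 in the next animal (0.855), and *Ces1d* 6.86 against 7.43 (0.907). Without this animal the differences of *Ces1c* and *Ces1d* were −0.81 and −1.02. The others were *Dgat2* (0.863), *Mia3* (0.848), *Apeh* (0.846) and *Sar1b* (0.836). A *Ces2c* probe was highest in Rbpj +/+_991 (0.842), and *Foxa1* was highest in Rbpj +/+_1024 (0.829).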

How the results depend on the processing

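No paired analysis was possible because the labels name each animal separately and no number occurs in both genotypes. The values of the 10 carboxylesterase genes and of their median moved by more than the spread between animals in 5 of 176 recomputed values. *Ces2e* was at −0.48 with normexp, −0.52 with quantile normalization or the series matrix and −0.49 as the mean of its probes, and *Ces3b* at −6.24 with normexp. With 1 animal left out, the median of the 10 lay between −1.67 and −1.18, *Ces1c* between −0.87 and −0.41, *Ces1d* between −1.10 and −0.62 and *Ces1g* between 0.02 and 0.68. *Ces2b*, which did not pass, turned to 0.076 with normexp and ranged from −0.59 to 0.11 with 1 animal left out. *Ces4a* fell by 1.78 with normexp, whose offset compresses dim signals. Genes called lower numbered 5581 with normexp, 671 without the filter for dim probes (968 higher) and 2382 at the stricter threshold. With 1 animal left out, 1865 to 4364 were lower and 1851 to 2737 higher. Without the filter the median of all genes shifted by −0.14. Genes called in the lists were 14 hydrolases and 1 retrieval gene with normexp, and 14 hydrolases with array weights. They were 6 VLDL genes with quantile normalization or the series matrix, and 1 retrieval gene with detection on all 7 arrays. Without the filter 1 other carboxylesterase, 2 hydrolases, 2 regulators, 1 VLDL and 1 retrieval gene were called, and 5 regulators and 5 VLDL genes at the stricter threshold. With 1 animal left out the ranges were 2 to 3 carboxylesterases, 5 to 13 hydrolases, 2 to 9 regulators, 4 to 14 VLDL genes and 2 to 2 retrieval genes. Rbpj -/-_N5 gave the lowest counts, 1865 lower genes, 5 hydrolases, 2 regulators and 4 VLDL genes without it. Lower genes numbered 2188 without Rbpj +/+_1024 and 2326 without Rbpj -/-_N3, and regulators 4 and 5. Calls were lost in 10 settings for *Cebpa* and *G0s2*, 9 for *Plin4*, 6 for *Nceh1* and 5 for *Ahr*. The cause was not tested. Dim signals limit the folds of *Ces3b* in *Rbpj*-/- liver, most of all in Rbpj -/-_N5, where its probe read −3.58.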
